A study of Drosophila melanogaster with 30 samples.

Results

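This comparison set pink1B9 flies that could not fly, although their parent pairs also produced flying offspring (group 3, 10 libraries), against revertant controls (group 1, 2 libraries), and so used 12 of the 30 libraries of the series. Members were taken by the group number in the library titles, and all genes of the deposited table were considered. Group 3 flies carry w and pink1B9, a null deletion of Pink1, and had failed the flight test. Group 1 flies carry w and pink1RV, a revertant of the same locus with an intact gene, and could fly. All were whole males 1 day old, and each library was made from a pool of flies. The rest of the series held 8 libraries of pink1B9 flies from pairs without any flying offspring (group 2) and 10 libraries of flying pink1B9 flies from the pairs of group 3 (group 4). The labels give neither a driver nor a transgene for these lines, and they do not say whether the 2 lines share the rest of their genome.

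PINK1 is a kinase of the outer mitochondrial surface that accumulates on damaged mitochondria and recruits the ubiquitin ligase Parkin, which marks them for removal by autophagy. Inherited defects of the human gene are one cause of early Parkinson's disease. In Drosophila its loss is known for swollen mitochondria and degeneration of the indirect flight muscle, for loss of flight and for male sterility.

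Total counts were 11467094 to 32996700 (median 17420876.5) in group 3, against 26014508 and 31584679 in group 1, and 13407 to 13702 genes had a count in a library of group 3. Values are given in CPM, the counts scaled by TMM to library sizes of equal depth. The tissue label of 3 libraries of group 3 (replicates 8, 9 and 10) names human skin in place of the whole body, while all columns of the table hold fly genes. Within group 3, 107 to 460 genes lay over 2-fold from the median of the group, with replicate 5 (460) and replicate 2 (437) farthest. Ribosomal RNA pseudogenes took 0.252% to 1.61% of counts in group 3, against 0.418% and 0.221% in group 1. Replicates are pools of flies, and p-values measure the spread between such pools.

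The controls stood apart from each other. Between them, 935 genes lay over 2-fold apart, 216 higher in replicate 1 and 719 higher in replicate 2, while the 45 pairs of group 3 libraries had 149 to 1535 such genes (median 406). Genes of the indirect flight muscle, which powers the wing beat, were among them (these were chosen after their values were seen). Act88F, the actin of this muscle, had 461 to 1565 CPM (median 932) in group 3, against 66.8 and 2929 CPM in group 1, and fln, which encodes the thick filament protein flightin, had 117 to 539.6 CPM (median 272) in group 3, against 14.3 and 805 CPM in group 1. All 10 libraries of group 3 lay between the 2 controls for both genes. Each comparison below rests on these 2 controls, and counts are given also with either of them left out. In whole flies, fewer cells of a type and less RNA per cell cannot be told apart.

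Pink1 itself (X chromosome, 6683798 to 6687302 in the BDGP6.54 annotation) was lower in every mutant library. It had 51.0 to 74.0 CPM (median 57.3) in group 3, against 221 and 270.5 CPM in group 1. The groups did not overlap, and the mutant libraries lay close together, with the highest level in replicate 5 (log2 fold change -2.07 ± 0.15, adjusted p = 9.8e-11, edgeR's quasi-likelihood test, with the standard error after ±). Part of the gene overlaps CG44303 on the other strand, which had an adjusted p of 0.92. Of the 20 genes nearest to Pink1, 10 on each side, 0 passed by edgeR, with 1 at an unadjusted p under 0.05 (Fum2, log2 fold change 0.43, adjusted p = 0.055).

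Of 13190 genes tested, 3494 passed an adjusted p of 0.05 (26.5%), with 1874 higher in group 3 (14.2%) and 1620 lower (12.3%). The median log2 fold change over all genes tested was -0.01. It was 0.84 among the genes called higher and -0.88 among those called lower. When the fold change also had to exceed 1.44 on the log2 scale in size, 611 genes were left, 233 higher (1.77%) and 378 lower (2.87%). All 10 libraries of group 3 lay above both controls for 19.1% of the genes tested and below both for another 19.1%. Among the genes called, 1769 of those higher and 1344 of those lower did not overlap between the groups, and 381 did.

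The number of genes called hung on the 2 controls. It was 1522 (735 higher, 787 lower) without group 1 replicate 1, of which 1396 had been called in the same direction with both controls, and 777 (351 higher, 426 lower) without group 1 replicate 2, of which 708 had. The split between higher and lower genes also moved with a library outside the comparison. Group 4 replicate 4 stood apart from all other libraries, with 2098 genes over 2-fold from the median of group 3 and a summed level of egg and ovary markers of 6305 CPM. Without it, 2058 genes were higher and 2715 lower, so that lower genes were in the majority. Leaving it out also changed the filter and the scaling, and the median log2 fold change of all genes shifted by -0.04. Upper-quartile scaling gave 1547 higher and 1829 lower. Without group 3 replicates 2 and 5 the count was 2619, and without the libraries labelled human skin it was 2505.

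**Figure D1:**
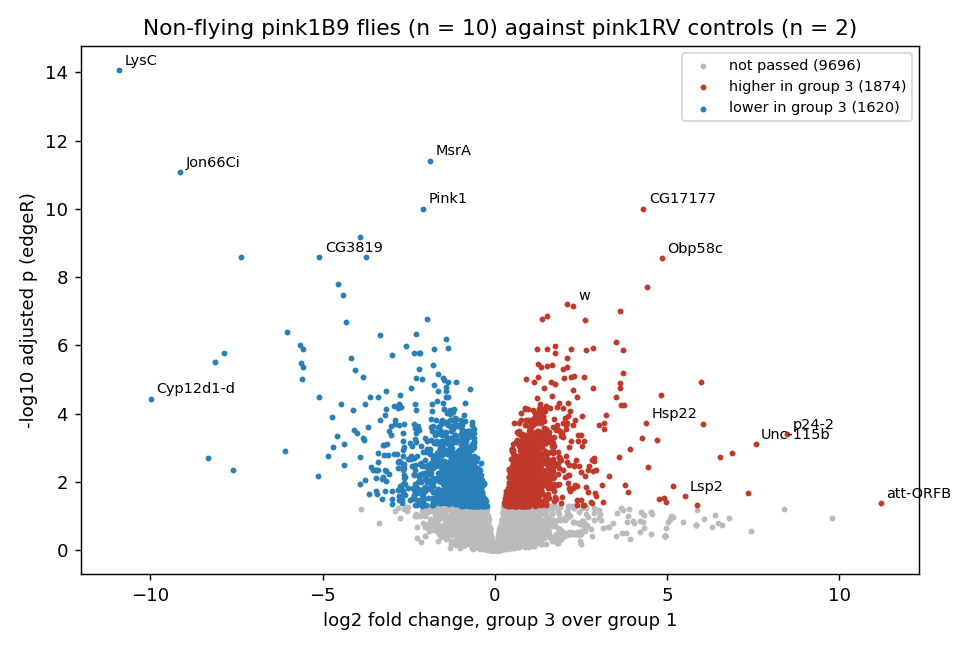
Log2 fold change of group 3 (10 libraries) over group 1 (2 libraries) on the x axis and -log10 of the adjusted p from edgeR on the y axis, for each of 13190 genes. Genes called higher (1874) are red, genes called lower (1620) are blue and the rest are grey, and Pink1, MsrA, LysC, Jon66Ci and CG17177 lie at the top.

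The 6 smallest p-values belonged to LysC and Jon66Ci, which had almost no counts left in group 3, and to Pink1, MsrA, CG17177 and CG4250, which moved evenly over its libraries. MsrA, a methionine sulfoxide reductase that repairs oxidised methionine, had 48.3 to 69.9 CPM (median 57.6) in group 3, against 230.3 and 202 CPM in group 1 (log2 fold change -1.89 ± 0.12, adjusted p = 3.9e-12, edgeR). The range of MsrA in the mutants was narrow and lay far below both controls. CG17177 had 34.4 to 53.7 CPM (median 47.4) in group 3, against 2.76 and 1.74 CPM in group 1 (log2 fold change 4.32 ± 0.32, adjusted p = 9.8e-11), and CG4250 had 1.65 to 5.19 CPM (median 2.75) in group 3, against 25.5 and 63.6 CPM in group 1 (log2 fold change -3.91 ± 0.32, adjusted p = 6.6e-10). Like Pink1, MsrA, CG17177 and CG4250 passed in each of 23 alternatives.

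Among the 12 largest rises, a pair of neighbours on chromosome 3R stood out. Unc-115b, related to actin-binding LIM proteins, had 73.7 to 427 CPM (median 286) in group 3, against 2.30 and 0.362 CPM in group 1 (log2 fold change 7.57 ± 1.51, adjusted p = 7.9e-04, edgeR), and p24-2, a member of the p24 family of cargo receptors between ER and Golgi, had 25.1 to 105 CPM (median 63.1) in group 3, against 0 and 0.362 CPM in group 1 (log2 fold change 8.48 ± 1.57, adjusted p = 4.0e-04). Both genes were close to absent in the controls and present in every group 3 library. They overlap over most of their length on the same strand, so that reads of one can be assigned to the other, and neither passed by limma-voom (adjusted p = 0.13 for Unc-115b and 0.25 for p24-2). The p24 gene eca, which is closest to p24-2 in kind, had 85.6 to 123 CPM (median 94.6) in group 3, against 96.4 and 72.2 CPM in group 1 and did not pass (adjusted p = 0.30).

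Stress and odorant-binding genes followed. Hsp22, a small heat shock protein of the mitochondrial matrix, had 95.1 to 976 CPM (median 242) in group 3, against 17.1 and 16.2 CPM in group 1 (log2 fold change 4.39 ± 0.76, adjusted p = 1.9e-04, edgeR), and Hsp70Aa had 1.52 to 194 CPM (median 21.6) in group 3, against 0.251 and 0.290 CPM in group 1 (log2 fold change 7.35 ± 2.31, adjusted p = 0.021). Both were higher in each mutant library than in either control, with a wide spread among the mutants. The odorant-binding genes Obp58c and Obp99b had 5.26 to 8.54 CPM (median 7.02) in group 3 against 0.395 and 0.0724 CPM in group 1 for Obp58c, and 19.3 to 478 CPM (median 115.2) in group 3 against 1.69 and 7.24 CPM in group 1 for Obp99b (log2 fold changes 4.86 and 4.96, adjusted p = 2.8e-09 and 0.039). Obp58c was even over the libraries, whereas Obp99b ranged over more than an order of magnitude. The cytochrome P450 gene Cyp309a1 had 33.2 to 80.4 CPM (median 62.6) in group 3, against 1.65 and 2.35 CPM in group 1 (log2 fold change 4.83 ± 0.71, adjusted p = 2.8e-05).

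The remaining rises were those of Lsp2, a larval storage protein, CG18179, CG3397 and att-ORFB. Lsp2 had 60.8 to 639 CPM (median 149) in group 3, against 5.78 and 5.65 CPM in group 1 (log2 fold change 5.51 ± 1.80, adjusted p = 0.026, edgeR), CG18179 had 5.46 to 74.3 CPM (median 45.0) in group 3, against 0.323 and 0.615 CPM in group 1 (log2 fold change 6.55 ± 1.43, adjusted p = 0.0018) and CG3397 had 26.7 to 47.1 CPM (median 37.2) in group 3, against 2.01 and 1.48 CPM in group 1 (log2 fold change 4.41 ± 0.42, adjusted p = 2.0e-08). None of them overlapped between the groups. att-ORFB, Hsp70Aa, Lsp2 and Obp99b no longer passed when either control was left out, and p24-2, Unc-115b, CG18179, CG3397, Obp58c, Cyp309a1, Hsp22 and CG17177 passed with either control left out.

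**Figure D2:**
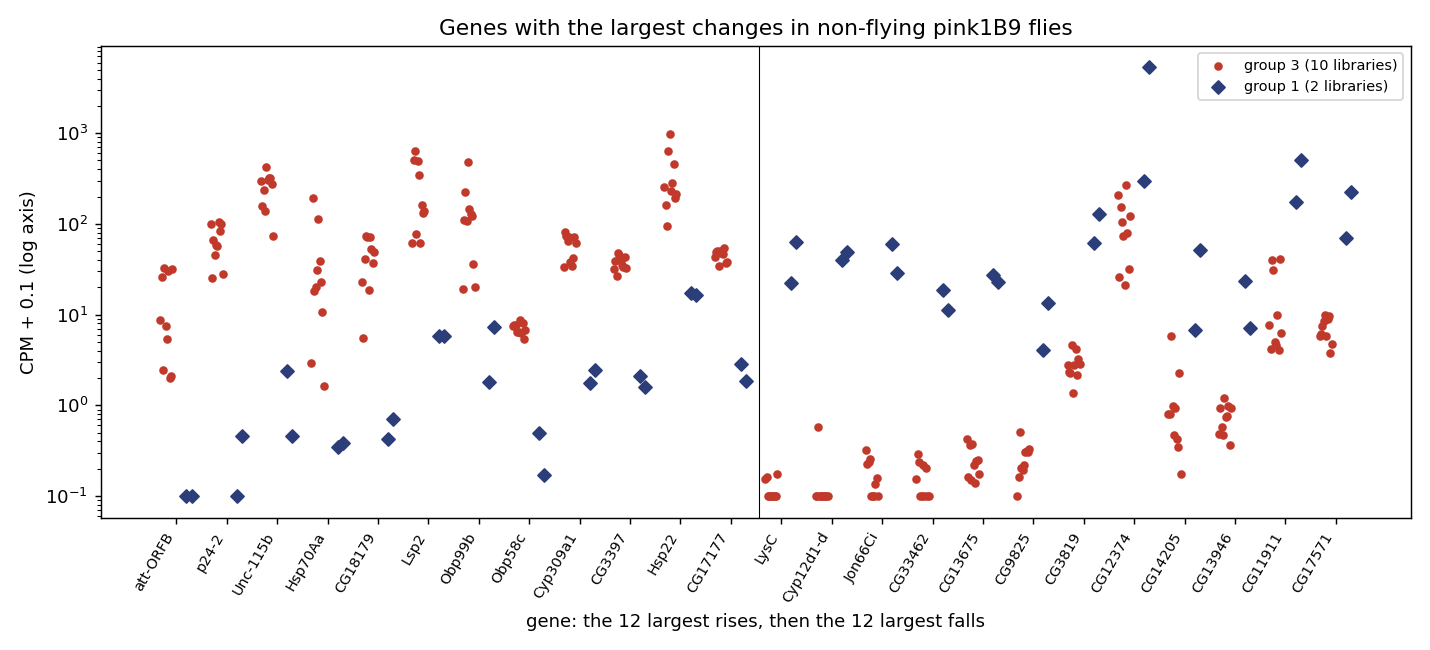
CPM plus 0.1 on a log axis for the 12 genes with the largest rises (left of the line) and the 12 with the largest falls (right of it) among genes called, with at least 5 CPM on average in the higher group and no overlap. Red points are the 10 libraries of group 3 and blue diamonds the 2 libraries of group 1. For LysC, Cyp12d1-d and Jon66Ci most red points lie at or near 0.

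LysC, a gut lysozyme that digests bacterial cell walls, had a total of 3 counts over the 10 libraries of group 3, against 621 and 1740 counts in group 1. This is a ratio of 0.000361, with a 95% interval of 7.4e-05 to 0.00106 from the counting error alone (exact binomial). LysC overlaps LysD and belongs to a set of near-identical copies. The sum over LysB, LysC, LysD and LysE was 37.9 to 329 CPM (median 167) in group 3, against 469 and 1101 CPM in group 1, so that the sum did not overlap either.

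Jon66Ci, a midgut serine protease of the Jonah family, had 14 counts over 6 libraries of group 3, against 1682 and 787 counts in group 1 (log2 fold change -9.13 ± 0.61, adjusted p = 8.5e-12, edgeR). Its neighbour Jon66Cii had 11 counts over 5 libraries of group 3, against 111 and 52 counts in group 1 (log2 fold change -5.57 ± 0.73, adjusted p = 4.3e-06). CG33462 had 11 counts over 5 libraries of group 3, against 519 and 309 counts in group 1. CG13675 had 28 counts spread over all 10 libraries of group 3, against 763 and 632 counts in group 1. These genes had almost no counts in the mutants and were well measured in both controls. The fitted fold changes of such genes rest on few counts.

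Cyp12d1-d was at 0 in 9 libraries of group 3 and had 7 counts in replicate 3, against 1114 and 1341 counts in group 1 (log2 fold change -9.97 ± 1.49, adjusted p = 3.6e-05, edgeR). The near-identical copy Cyp12d1-p had 15.8 to 40.4 CPM (median 24.01) in group 3, against 44.1 and 27.8 CPM in group 1 and did not pass (adjusted p = 0.41). Summed over both copies, the level was 15.8 to 40.4 CPM (median 24.01) in group 3 and 84.1 and 76.3 CPM in group 1. The pair as a whole was below both controls in each mutant library. By DESeq2, Cyp12d1-d did not pass (adjusted p = 0.16).

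The other large falls were less complete. CG12374, a carboxypeptidase, had 21.2 to 269 CPM (median 92.0) in group 3, against 293 and 5306 CPM in group 1 (log2 fold change -4.69 ± 0.95, adjusted p = 9.7e-04, edgeR), and CG3819 had 1.28 to 4.51 CPM (median 2.68) in group 3, against 62.1 and 128 CPM in group 1 (log2 fold change -5.09 ± 0.44, adjusted p = 2.6e-09). CG17571 and CG11911 had 3.72 to 9.91 CPM (median 6.76) in group 3 against 70.3 and 224 CPM in group 1 for CG17571, and 4.02 to 40.6 CPM (median 6.92) in group 3 against 174 and 499.6 CPM in group 1 for CG11911 (log2 fold changes -4.39 and -4.46). In CG12374 the controls themselves differed by more than an order of magnitude. The log2 fold changes of CG9825, CG14205 and CG13946 were -5.66, -4.59 and -4.56. CG12374 and CG14205 no longer passed without group 1 replicate 2, and LysC, Cyp12d1-d, Jon66Ci, CG33462, CG13675, CG9825, CG3819, CG13946, CG11911 and CG17571 passed with either control left out.

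A few genes had counts in one group only. The gene att-ORFB had 35 to 731 counts in the 10 libraries of group 3 and 0 in both controls. Set against a floor of 3 counts per library, the group 3 mean of att-ORFB was at least 137-fold higher (adjusted p = 0.042, edgeR). The group 3 means of the cuticle gene Cpr47Eg (2 to 9 counts) and CG42500 (1 to 9 counts) were at least 2.07-fold and 1.80-fold higher by the same floor. Single libraries of group 3 lay below this floor of 0.109 CPM, down to 0.105 CPM for Cpr47Eg and 0.0548 CPM for CG42500. In the other direction, CR45773, CG43667 and Mst77Y-4 had 0 counts in all 10 mutant libraries. In the controls CR45773 had 32 and 78 counts, CG43667 54 and 43 counts, and Mst77Y-4 37 and 30 counts. By the control means, they were at least 7.21-fold, 6.35-fold and 4.38-fold lower against the floor. CR45773 and Mst77Y-4 did not pass by DESeq2 (adjusted p = 0.36 and 0.37). att-ORFB, Cpr47Eg and CG42500 no longer passed when either control was left out, Mst77Y-4 without group 1 replicate 2, and CR45773 and CG43667 passed with either control left out. CR45773 and Mst77Y-4 lie on the Y chromosome, where Mst77Y copies resemble each other closely.

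Genes of the PINK1 pathway moved in both directions. Of 21 genes for mitochondrial quality control, fission and fusion, 7 were higher and 4 lower (33.3% and 19.0%, against 14.2% and 12.3% of all genes), with a median log2 fold change of 0.07. The list holds Pink1 itself, the mutated gene, which is 1 of the 4 lower genes. Parkin (park) had 48.8 to 86.7 CPM (median 62.1) in group 3, against 38.5 and 34.6 CPM in group 1 (log2 fold change 0.81 ± 0.21, adjusted p = 0.0064, edgeR). Chchd2, a protein of the intermembrane space, had 212 to 675 CPM (median 322) in group 3, against 156 and 154 CPM in group 1 (log2 fold change 1.18 ± 0.27, adjusted p = 0.0024), and rho-7, a rhomboid protease of the inner membrane, had 89.8 to 127 CPM (median 104) in group 3, against 77.7 and 59.3 CPM in group 1 (log2 fold change 0.63 ± 0.16, adjusted p = 0.0062). All of these lay above both controls in each mutant library. The counts were 3 higher and 3 lower without group 1 replicate 1, and 0 higher and 1 lower without group 1 replicate 2. Other settings gave 2 lower without group 3 replicates 2 and 5 or without group 3 replicate 5. park, Chchd2 and rho-7 no longer passed without group 1 replicate 2, and Pink1 passed with either control left out.

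Transcripts encoded in the mitochondrial genome were lower. Of 12 such genes, which encode core subunits of the respiratory chain, 8 fell (66.7%, against 12.3% of all genes) and 1 rose, with a median log2 fold change of -1.19. Their sum was 9301 to 23239.5 CPM (median 16000.4) in group 3, against 31041 and 64508 CPM in group 1. Every mutant library lay below both controls, and group 1 replicate 2 was the higher control. The cytochrome oxidase gene mt:CoI had 2802 to 8489.9 CPM (median 5836) in group 3, against 14507 and 24338 CPM in group 1 (log2 fold change -1.79 ± 0.32, adjusted p = 2.3e-04, edgeR), mt:CoIII had a log2 fold change of -1.68, mt:Cyt-b of -1.61 and mt:CoII of -0.77.

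The complex I genes of the mitochondrial genome were not alike. Those for mt:ND5 and mt:ND4 had log2 fold changes of -2.04 and -1.99 (these and the other ND genes were chosen after their values were seen). The scarce transcript mt:ND4L was the one that rose, with 1.04 to 5.60 CPM (median 2.24) in group 3, against 0.539 and 0.398 CPM in group 1 (log2 fold change 2.39 ± 0.69, adjusted p = 0.013, edgeR), and mt:ND2 had 18.1 to 71.8 CPM (median 39.1) in group 3, against 23.3 and 16.7 CPM in group 1 (adjusted p = 0.072). The mutants lay above both controls for mt:ND4L and overlapped with them for mt:ND2. Over the list of 12, the counts were 0 higher and 8 lower without group 1 replicate 1, and 0 higher and 0 lower without group 1 replicate 2. Some other alternatives had 2 higher without group 3 replicate 7 and 3 higher by DESeq2. mt:CoI, mt:CoIII, mt:Cyt-b and mt:CoII no longer passed without group 1 replicate 2.

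The nuclear genes of the respiratory chain gave few calls. Of complex I genes, 1 of 34 was higher and 1 lower (2.94% and 2.94%, against 14.2% and 12.3% of all genes), and of genes for complexes II to V, 1 of 35 was higher and 0 lower (2.86% and 0%), with medians of 0.17 and 0.03. ND-AGGG had 186 to 402 CPM (median 225) in group 3, against 103 and 179 CPM in group 1 (log2 fold change 0.78 ± 0.28, adjusted p = 0.037, edgeR), ND-51 had 263 to 467 CPM (median 325) in group 3, against 414 and 698 CPM in group 1 (log2 fold change -0.75 ± 0.19, adjusted p = 0.0056) and COX7A had 182 to 243 CPM (median 212) in group 3, against 154 and 147 CPM in group 1 (log2 fold change 0.51 ± 0.14, adjusted p = 0.0098). ND-51 overlapped between the groups and the other genes did not. For complexes II to V, 31 of 35 genes were over 2-fold apart between the controls, with sums of 16484 to 31035 CPM (median 19703) in group 3, against 11574 and 36772 CPM in group 1. Counts for these genes were 0 higher and 3 lower without group 1 replicate 1, and 7 higher and 0 lower without group 1 replicate 2. Counts for complex I were 0 higher and 3 lower without group 1 replicate 1, and 4 higher and 0 lower without group 1 replicate 2. Among the other alternatives were 2 lower without group 3 replicate 4. COX7A no longer passed when either control was left out, ND-AGGG without group 1 replicate 1, and ND-51 without group 1 replicate 2.

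Genes that build and fold mitochondrial proteins were higher or did not pass. Of 73 mitochondrial ribosomal protein genes, 17 rose (23.3%, against 14.2% of all genes) and 0 fell, with a median of 0.36. mRpL39 had 17.7 to 33.5 CPM (median 26.5) in group 3, against 14.4 and 12.1 CPM in group 1 (log2 fold change 0.98 ± 0.24, adjusted p = 0.0046, edgeR), and mRpL20, mRpL32 and mRpS17 had log2 fold changes of 0.80, 1.03 and 0.77. In 23 of the 73 genes all mutant libraries lay above both controls, against 19.1% of all genes, and in 0 below. The counts were 5 higher and 0 lower without group 1 replicate 1, and 1 higher and 0 lower without group 1 replicate 2. Further settings gave counts of 6 higher without the libraries labelled human skin, 7 higher without group 3 replicates 2 and 5 and 11 higher with upper-quartile scaling or without group 3 replicate 5 or 6. mRpL39, mRpL20, mRpL32 and mRpS17 no longer passed without group 1 replicate 2.

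Of 17 mitochondrial chaperone and protease genes, 7 rose and 0 fell (41.2% and 0%, against 14.2% and 12.3% of all genes), and of 21 import genes, 8 rose and 0 fell (38.1% and 0%). The prohibitins, which form rings in the inner membrane, moved together. Phb2 had 227 to 454 CPM (median 313) in group 3, against 177 and 162 CPM in group 1 (log2 fold change 0.96 ± 0.18, adjusted p = 4.7e-04, edgeR), Phb1 had 175 to 299 CPM (median 200.4) in group 3, against 114 and 109 CPM in group 1 (log2 fold change 0.97 ± 0.21, adjusted p = 0.0017), and Roe1, the GrpE-like exchange factor of the matrix Hsp70, had 119.9 to 199 CPM (median 145) in group 3, against 82.0 and 74.2 CPM in group 1 (log2 fold change 0.97 ± 0.19, adjusted p = 6.5e-04). None of the 3 overlapped with the controls. Among import genes, the small Tim chaperones Tim9b, Tim8 and Tim9a and the motor subunit blp had log2 fold changes of 0.71, 0.54, 0.72 and 0.52. Chaperone counts were 5 higher and 0 lower without group 1 replicate 1, and 4 higher and 0 lower without group 1 replicate 2. Import counts were 1 higher and 0 lower without group 1 replicate 1, and 0 higher and 0 lower without group 1 replicate 2. In other fits there were 5 higher without the libraries labelled human skin and 13 higher with only the 12 libraries fitted or without group 3 replicate 4. Tim8, Tim9a and blp no longer passed when either control was left out, Tim9b without group 1 replicate 2, and Phb2, Phb1 and Roe1 passed with either control left out.

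**Figure D3:**
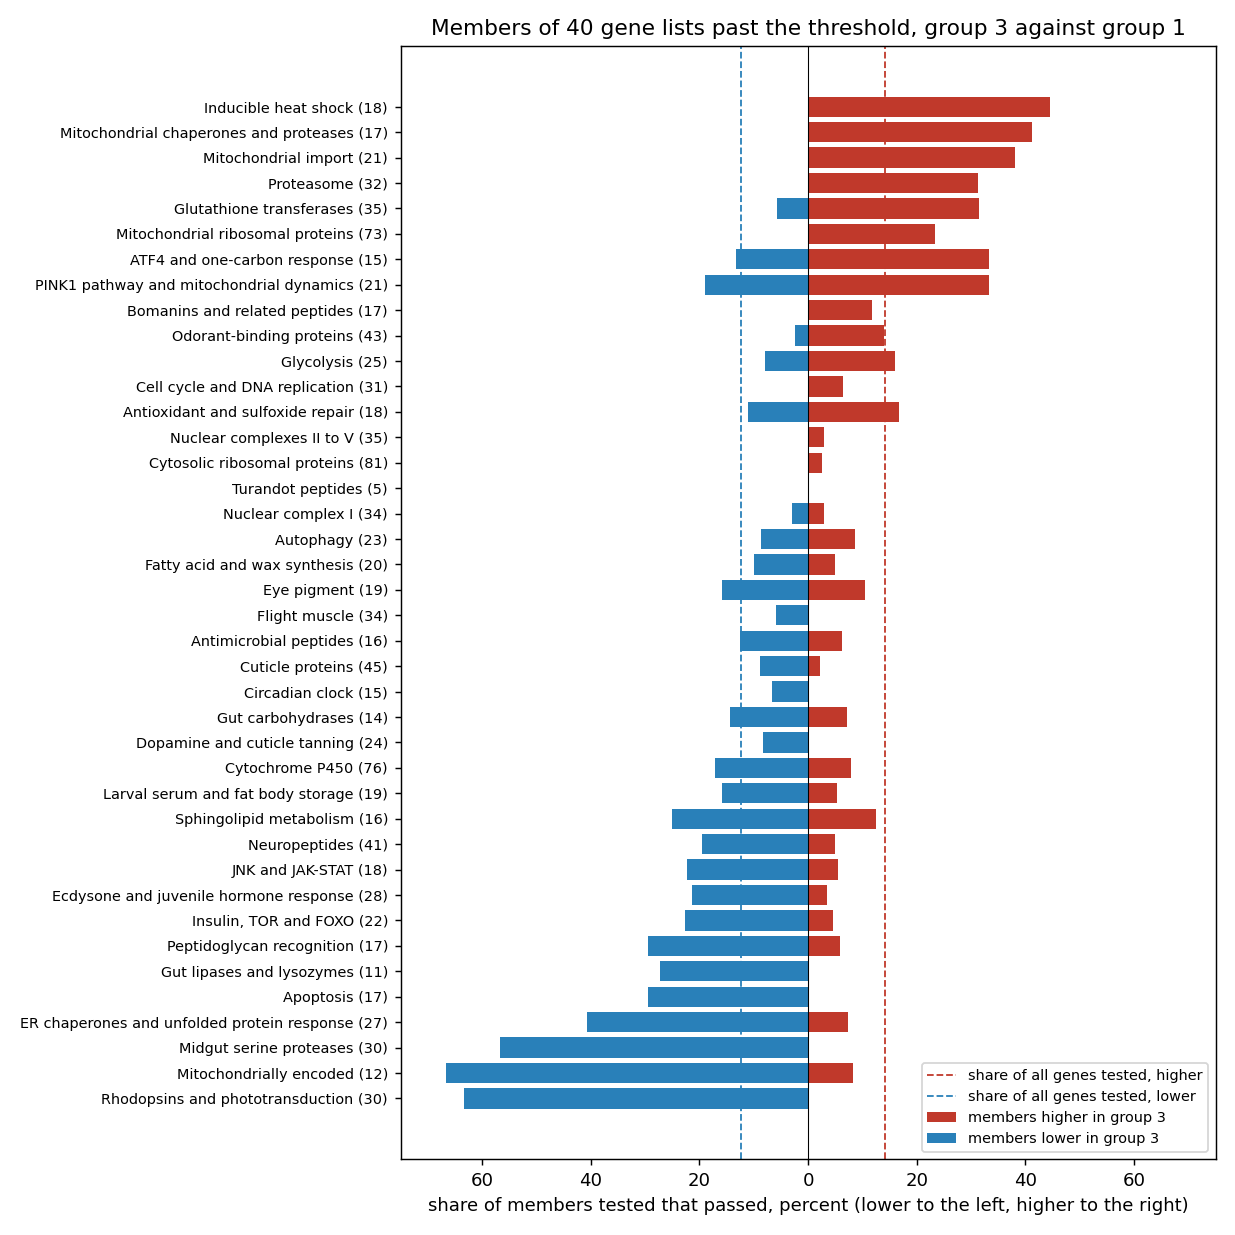
Share of the members tested of each of 40 gene lists that passed higher (red, to the right) or lower (blue, to the left) in group 3 against group 1, in percent, with the number of members tested in brackets. Dashed lines give the shares of all genes tested, 14.2% higher and 12.3% lower. Lists of photoreceptor, mitochondrially encoded and midgut protease genes reach farthest to the left, and heat shock and mitochondrial chaperone genes farthest to the right.

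Few genes of the flight muscle passed the test. Of 34 flight muscle genes, 0 were higher and 2 lower (0% and 5.88%, against 14.2% and 12.3% of all genes), with a median of -0.18. TpnC4, the calcium sensor of the indirect flight muscle, had 94.7 to 602 CPM (median 148) in group 3, against 16.4 and 498 CPM in group 1 and did not pass (adjusted p = 0.70, edgeR). The genes that fell encode integrins, which anchor muscle to tendon cells. The beta integrin gene mys had 76.9 to 95.5 CPM (median 86.7) in group 3, against 108 and 168 CPM in group 1 (log2 fold change -0.68 ± 0.23, adjusted p = 0.032), and the alpha integrin gene if had 63.8 to 144 CPM (median 96.6) in group 3, against 119.6 and 189.6 CPM in group 1 (log2 fold change -0.67 ± 0.23, adjusted p = 0.036). Summed over Act88F, fln and TpnC4, group 3 spanned 697 to 2637 CPM (median 1357), against 97.6 and 4231 CPM in group 1. For these genes the gap between the controls was thus 43.4-fold, against 3.78-fold between the lowest and highest mutant library. Act88F, fln and TpnC4 were chosen after their values were seen. The sum over all 34 genes was 29859 to 42202.5 CPM (median 32433) in group 3, against 18553 and 54120.5 CPM in group 1. The controls were thus closer together over the whole list, and the mutants lay between them. The counts were 0 higher and 3 lower without group 1 replicate 1, and 1 higher and 0 lower without group 1 replicate 2. Other choices left 0 lower without group 3 replicates 2 and 5 or without the libraries labelled human skin, 1 lower without group 3 replicate 2, 5, 6 or 8 and 5 lower with only the 12 libraries fitted. mys and if no longer passed without group 1 replicate 2.

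**Figure D4:**
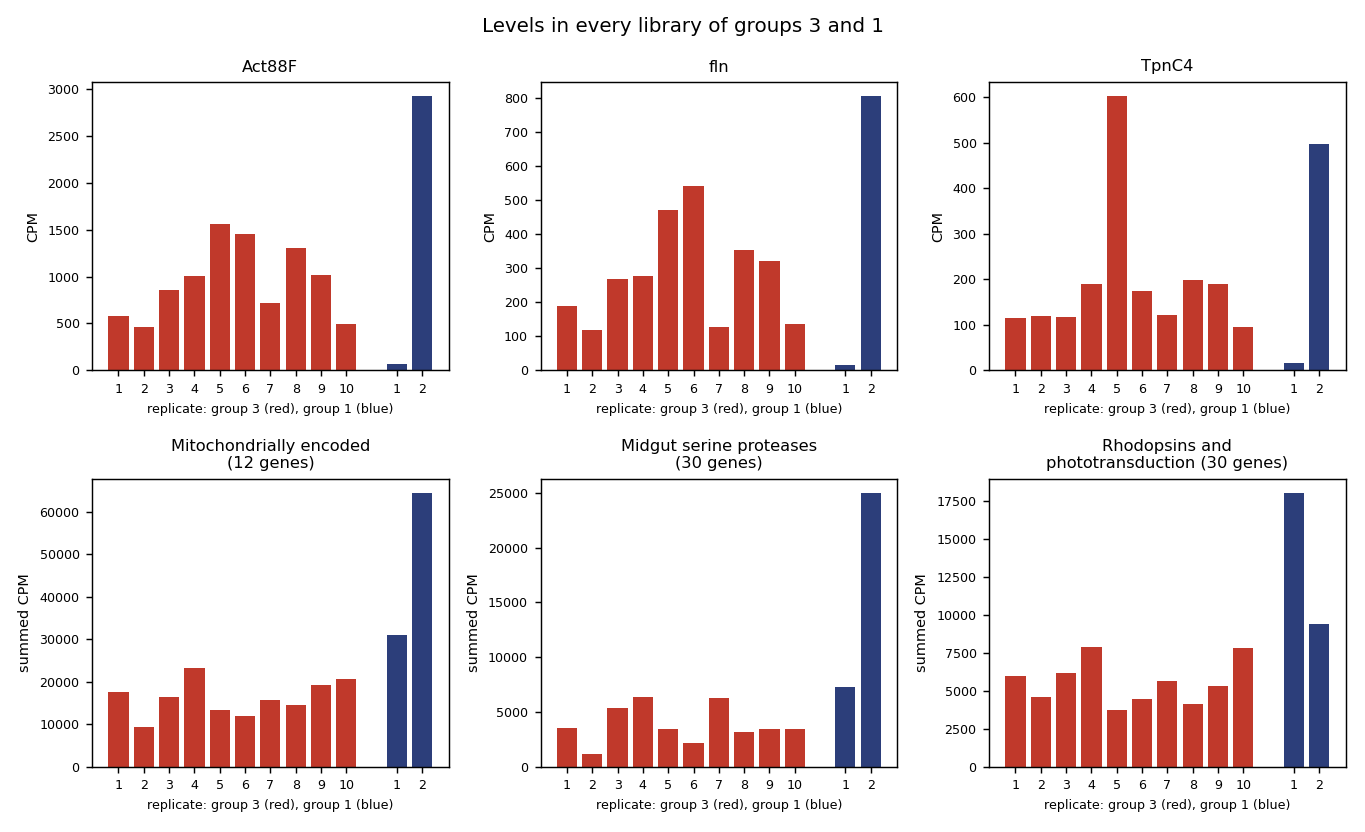
Levels in each library of group 3 (red, replicates 1 to 10) and group 1 (blue, replicates 1 and 2), in CPM for Act88F, fln and TpnC4 and in summed CPM for 3 gene lists. The flight muscle genes of the mutants lie between the controls except for TpnC4 in replicate 5.

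Many midgut proteases fell. Of 30 serine proteases that digest dietary protein, 17 fell (56.7%, against 12.3% of all genes) and 0 rose, with a median log2 fold change of -1.95. The sum was 1195 to 6314 CPM (median 3419) in group 3, against 7228 and 25018 CPM in group 1. Every mutant was below both controls. Jon65Aiii had 58.5 to 373 CPM (median 198) in group 3, against 1108 and 2665 CPM in group 1 (log2 fold change -3.16 ± 0.46, adjusted p = 2.2e-05, edgeR), and Jon65Aiv had 102 to 666 CPM (median 339) in group 3, against 1241 and 3923 CPM in group 1 (log2 fold change -2.89 ± 0.49, adjusted p = 1.6e-04). Jon25Biii, another Jonah protease, had 58.4 to 581 CPM (median 189.6) in group 3, against 33.1 and 667 CPM in group 1 (adjusted p = 0.77, chosen after its values were seen). In 23 of the 30 genes the controls were over 2-fold apart, and the counts were 0 higher and 12 lower without group 1 replicate 1, and 0 higher and 4 lower without group 1 replicate 2. Jon65Aiv no longer passed without group 1 replicate 2, and Jon65Aiii, Jon66Ci and Jon66Cii passed with either control left out.

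Other digestive genes were mixed. Of gut carbohydrases, 1 of 14 was higher and 2 lower (7.14% and 14.3%, against 14.2% and 12.3% of all genes), and of lipases and lysozymes, 0 of 11 were higher and 3 lower (0% and 27.3%). The glucosidase gene tobi, named as a target of insulin-like signals from the brain, had 58.5 to 296 CPM (median 84.4) in group 3, against 7.83 and 12.99 CPM in group 1 (log2 fold change 3.30 ± 0.86, adjusted p = 0.0068, edgeR), while the amylase gene Amy-d had 81.8 to 327 CPM (median 141) in group 3, against 279.6 and 724 CPM in group 1 (log2 fold change -1.66 ± 0.55, adjusted p = 0.028). The lysozyme gene LysP had 19.0 to 34.5 CPM (median 25.9) in group 3, against 106 and 59.9 CPM in group 1 (log2 fold change -1.64 ± 0.22, adjusted p = 7.1e-06). LysP and tobi separated the groups and Amy-d did not. LysE and Mal-A5 had log2 fold changes of -1.47 and -0.92, with overlap. Carbohydrase counts were 0 higher and 2 lower without group 1 replicate 1, and 0 higher and 0 lower without group 1 replicate 2. Elsewhere they were 0 lower without the libraries labelled human skin and 1 lower without group 3 replicates 2 and 5. Lipase and lysozyme counts were 0 higher and 3 lower without group 1 replicate 1, and 0 higher and 2 lower without group 1 replicate 2. tobi no longer passed when either control was left out, Amy-d, LysE and Mal-A5 without group 1 replicate 2, and LysP and LysC passed with either control left out.

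Genes of the light response were lower. Of 30 genes of rhodopsins and phototransduction, 0 rose and 19 fell (0% and 63.3%, against 14.2% and 12.3% of all genes), with a median of -0.96, and the sum was 3722 to 7903 CPM (median 5485) in group 3, against 18049 and 9369 CPM in group 1. The mutants lay below both controls, of which group 1 replicate 1 was the higher. The channel gene trpl had 141 to 291 CPM (median 167) in group 3, against 623 and 414 CPM in group 1 (log2 fold change -1.46 ± 0.23, adjusted p = 7.3e-05, edgeR), and chp, which encodes a surface protein of the light-sensing membrane, had 73.0 to 199 CPM (median 108) in group 3, against 327 and 396 CPM in group 1 (log2 fold change -1.62 ± 0.29, adjusted p = 2.5e-04). The arrestin gene Arr1 had 335 to 844 CPM (median 548) in group 3, against 2432 and 939 CPM in group 1 (log2 fold change -1.60 ± 0.32, adjusted p = 7.3e-04). All 3 separated the groups. Rh4, the ultraviolet rhodopsin of the inner photoreceptors, had a log2 fold change of -1.30 (adjusted p = 2.3e-04). The counts were 0 higher and 4 lower without group 1 replicate 1, and 0 higher and 10 lower without group 1 replicate 2. Arr1 and Rh4 no longer passed without group 1 replicate 1, and trpl and chp passed with either control left out.

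Eye pigment genes moved singly, and 2 of 19 were higher and 3 lower (10.53% and 15.8%, against 14.2% and 12.3% of all genes). The transporter gene w, which is mutant in all of these lines by their genotype, had 19.7 to 37.0 CPM (median 24.6) in group 3, against 5.71 and 4.89 CPM in group 1 (log2 fold change 2.26 ± 0.23, adjusted p = 7.0e-08, edgeR). Its partner bw, which carries pteridine precursors, had 4.37 to 7.58 CPM (median 4.98) in group 3, against 17.5 and 12.02 CPM in group 1 (log2 fold change -1.50 ± 0.21, adjusted p = 8.9e-06). The mutants lay above both controls for w and below both for bw. The granule trafficking genes or and lt had log2 fold changes of 0.70 and -0.49. Counts in this list were 2 higher and 1 lower without group 1 replicate 1, and 2 higher and 1 lower without group 1 replicate 2. Other settings gave 6 lower without group 4 replicate 4. lt no longer passed when either control was left out, the gene or without group 1 replicate 2, and w and bw passed with either control left out.

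Heat shock and proteasome genes that passed were higher. Of 18 inducible heat shock genes, 8 rose and 0 fell (44.4% and 0%, against 14.2% and 12.3% of all genes), with a median of 0.90. Hsp22 of the mitochondrial matrix is among them and is also counted among the mitochondrial chaperone genes above. The co-chaperone gene DnaJ-1 had 206 to 303 CPM (median 241) in group 3, against 193 and 166 CPM in group 1 (log2 fold change 0.46 ± 0.12, adjusted p = 0.0065, edgeR). CG4456 had 61.2 to 90.1 CPM (median 75.9) in group 3, against 44.3 and 35.4 CPM in group 1 (log2 fold change 0.96 ± 0.19, adjusted p = 6.1e-04) and overlaps Hsp22 on the same strand, so that their reads cannot be told apart with certainty. Both lay above the controls throughout. The sum over 6 near-identical Hsp70 genes was 54.8 to 1123 CPM (median 172) in group 3, against 34.3 and 43.4 CPM in group 1, with the top value in replicate 2. The counts were 3 higher and 1 lower without group 1 replicate 1, and 2 higher and 0 lower without group 1 replicate 2. Some other alternatives had 5 higher without group 3 replicates 2 and 5. Hsp70Aa no longer passed when either control was left out, DnaJ-1 without group 1 replicate 2, and CG4456 and Hsp22 passed with either control left out.

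Proteasome genes rose in 10 of 32 and fell in 0 (31.2% and 0%, against 14.2% and 12.3% of all genes), with sums of 4162 to 5722 CPM (median 4295) in group 3, against 3621 and 3604 CPM in group 1. Prosbeta6 of the catalytic core had 139 to 212 CPM (median 167) in group 3, against 101 and 101 CPM in group 1 (log2 fold change 0.76 ± 0.15, adjusted p = 6.1e-04, edgeR), and Prosalpha5, Prosbeta7 and the lid subunit Rpn7 had log2 fold changes of 0.46, 0.50 and 0.52. The groups did not overlap in any of these. Autophagy genes were split, and 2 of 23 were higher and 2 lower (8.70% and 8.70%). Atg14 and Atg4a had log2 fold changes of 0.41 and 0.30, and the lipid kinase gene Pi3K59F and the scaffold gene Atg17 of -0.59 and -0.83. Proteasome counts were 3 higher and 0 lower without group 1 replicate 1, and 1 higher and 0 lower without group 1 replicate 2. Autophagy counts were 1 higher and 0 lower without group 1 replicate 1, and 0 higher and 0 lower without group 1 replicate 2. Among the other alternatives were 1 higher at a mean of at least 5 CPM, without group 3 replicates 2 and 5, with median-of-ratios scaling, without a filter on low counts, without the libraries labelled human skin or without group 3 replicate 1, 3, 5, 6 or 9, 4 higher by DESeq2, by limma-voom or with only the 12 libraries fitted, 0 lower without group 3 replicates 2 and 5 or without the libraries labelled human skin, 1 lower without group 3 replicate 5, 4 lower with only the 12 libraries fitted or without group 3 replicate 4 and 5 lower without group 4 replicate 4. Rpn7, Atg4a, Pi3K59F and Atg17 no longer passed when either control was left out, Prosalpha5, Prosbeta7 and Atg14 without group 1 replicate 2, and Prosbeta6 passed with either control left out.

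Chaperones of the endoplasmic reticulum (ER), which fold secreted proteins, went the other way. Of 27 genes, 2 rose and 11 fell (7.41% and 40.7%, against 14.2% and 12.3% of all genes), with a median of -0.24. The disulfide isomerase gene Pdi had 344 to 611 CPM (median 526) in group 3, against 1067 and 744 CPM in group 1 (log2 fold change -0.84 ± 0.18, adjusted p = 0.0013, edgeR), and the calreticulin gene Calr had 259.5 to 482 CPM (median 423) in group 3, against 792 and 541 CPM in group 1 (log2 fold change -0.68 ± 0.18, adjusted p = 0.0070). ERp60 and Gp93 had log2 fold changes of -0.61 and -0.71. The levels of these 4 did not overlap, with control replicate 1 the higher of the controls. The counts were 0 higher and 0 lower without group 1 replicate 1, and 0 higher and 7 lower without group 1 replicate 2. Further settings gave counts of 1 higher with upper-quartile scaling or without the libraries labelled human skin and 4 higher by DESeq2. Pdi, Calr, ERp60 and Gp93 no longer passed without group 1 replicate 1.

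Of the ER genes that the study took to functional tests, wbl, a disulfide isomerase relative, had 16.62 to 35.9 CPM (median 30.4) in group 3, against 67.6 and 27.9 CPM in group 1 (log2 fold change -0.74 ± 0.24, adjusted p = 0.024, edgeR), with overlap of the groups. Without group 1 replicate 1 the direction of wbl turned (log2 fold change 0.063, adjusted p = 0.92), and by limma-voom it did not pass (log2 fold change -0.62, adjusted p = 0.052). Torsin, an ATPase of the ER lumen, had 12.1 to 19.7 CPM (median 16.64) in group 3, against 27.5 and 26.4 CPM in group 1 (log2 fold change -0.73 ± 0.22, adjusted p = 0.018), and zda, an immunophilin, had 192 to 229.6 CPM (median 218) in group 3, against 170.0 and 171 CPM in group 1 (log2 fold change 0.33 ± 0.11, adjusted p = 0.031). Both separated the groups. KdelR, the receptor that returns chaperones to the ER, had 87.3 to 120.3 CPM (median 114) in group 3, against 151 and 112 CPM in group 1 and did not pass (log2 fold change -0.24, adjusted p = 0.093), while it passed without group 1 replicate 2 and without group 4 replicate 4 (log2 fold changes -0.45 and -0.28, adjusted p = 0.039 each) and had 0.02 without group 1 replicate 1. Torsin and zda no longer passed when either control was left out.

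Of 35 glutathione transferases, which couple glutathione to toxic compounds, 11 rose and 2 fell (31.4% and 5.71%, against 14.2% and 12.3% of all genes). GstD5 had 8.78 to 26.2 CPM (median 14.6) in group 3, against 3.20 and 2.46 CPM in group 1 (log2 fold change 2.51 ± 0.47, adjusted p = 4.3e-04, edgeR), GstD9 had 55.9 to 104 CPM (median 67.0) in group 3, against 36.3 and 41.3 CPM in group 1 (log2 fold change 0.86 ± 0.19, adjusted p = 0.0018) and GstO3 had 52.0 to 71.3 CPM (median 61.1) in group 3, against 113 and 96.0 CPM in group 1 (log2 fold change -0.77 ± 0.16, adjusted p = 9.5e-04). GstD5 and GstD9 lay above both controls and GstO3 below them, as did GstE2, with a log2 fold change of -1.14. Of 76 cytochrome P450 genes, 6 rose and 13 fell (7.89% and 17.1%). Cyp309a2, the neighbour of Cyp309a1, had 37.8 to 53.7 CPM (median 40.7) in group 3, against 15.2 and 14.4 CPM in group 1 (log2 fold change 1.51 ± 0.20, adjusted p = 4.0e-06), and Cyp4g15 had 10.1 to 22.02 CPM (median 16.4) in group 3, against 25.0 and 85.8 CPM in group 1 (log2 fold change -1.80 ± 0.23, adjusted p = 3.7e-06). Transferase counts were 5 higher and 1 lower without group 1 replicate 1, and 3 higher and 1 lower without group 1 replicate 2. Counts for P450 genes were 5 higher and 11 lower without group 1 replicate 1, and 5 higher and 3 lower without group 1 replicate 2. GstO3 no longer passed without group 1 replicate 1, GstE2 and Cyp4g15 without group 1 replicate 2, and GstD5, GstD9 and Cyp309a2 passed with either control left out.

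Of 18 antioxidant genes, 3 rose and 2 fell (16.7% and 11.1%, against 14.2% and 12.3% of all genes). The glutathione peroxidase gene PHGPx had 329 to 848 CPM (median 387) in group 3, against 180.4 and 206 CPM in group 1 (log2 fold change 1.23 ± 0.32, adjusted p = 0.0074, edgeR), and the mitochondrial peroxiredoxin gene Prx3 had 63.0 to 78.4 CPM (median 69.8) in group 3, against 44.5 and 54.3 CPM in group 1 (log2 fold change 0.50 ± 0.13, adjusted p = 0.0057). Both were higher throughout the mutants, while Keap1, the sensor that holds back antioxidant transcription, had a log2 fold change of -0.39. In the list of ATF4 and one-carbon genes, 5 of 15 were higher and 2 lower (33.3% and 13.3%). CG6415, the aminomethyltransferase of glycine cleavage, had 43.6 to 65.4 CPM (median 49.8) in group 3, against 6.79 and 16.9 CPM in group 1 (log2 fold change 2.11 ± 0.33, adjusted p = 4.9e-05), and pug, a folate enzyme, had 162 to 414 CPM (median 277) in group 3, against 50.5 and 94.7 CPM in group 1 (log2 fold change 1.87 ± 0.41, adjusted p = 0.0019). Atf3 and Nmda1 had log2 fold changes of -0.78 and -0.54. Antioxidant counts were 0 higher and 1 lower without group 1 replicate 1, and 1 higher and 1 lower without group 1 replicate 2. In other fits there were 1 lower without group 3 replicates 2 and 5 or without the libraries labelled human skin. One-carbon counts were 1 higher and 1 lower without group 1 replicate 1, and 2 higher and 2 lower without group 1 replicate 2. PHGPx and Keap1 no longer passed when either control was left out, Prx3, pug and Nmda1 without group 1 replicate 1, and CG6415, Atf3 and MsrA passed with either control left out.

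Of glycolytic genes, 4 of 25 were higher and 2 lower (16% and 8%, against 14.2% and 12.3% of all genes). Lactate dehydrogenase (Ldh) had 55.4 to 85.3 CPM (median 69.5) in group 3, against 31.1 and 28.9 CPM in group 1 (log2 fold change 1.24 ± 0.23, adjusted p = 4.5e-04, edgeR), and Gpdh2, a glycerol phosphate dehydrogenase, had 40.9 to 78.8 CPM (median 54.5) in group 3, against 35.2 and 32.5 CPM in group 1 (log2 fold change 0.78 ± 0.23, adjusted p = 0.012). Both lay above the controls. Hexokinase (Hex-A) and trehalase (Treh) had log2 fold changes of -0.76 and -0.53, with overlap. The glycolytic sum was 12606 to 22284 CPM (median 15788) in group 3, against 9749 and 25616 CPM in group 1, so that all mutants lay between the controls. Glycolytic counts were 1 higher and 8 lower without group 1 replicate 1, and 2 higher and 0 lower without group 1 replicate 2. Other choices left 2 higher without the libraries labelled human skin and 1 lower without the libraries labelled human skin. Gpdh2 no longer passed when either control was left out, Hex-A and Treh without group 1 replicate 2, and Ldh passed with either control left out.

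Among fat body and lipid genes, Lsd-1, the perilipin that coats lipid droplets, had 49.0 to 149 CPM (median 89.9) in group 3, against 153 and 378 CPM in group 1 (log2 fold change -1.57 ± 0.27, adjusted p = 2.0e-04, edgeR). The ferritin genes Fer2LCH and Fer1HCH, which overlap each other, had 654 to 824 CPM (median 749) in group 3 against 928 and 1346 CPM in group 1 for Fer2LCH, and 734 to 955 CPM (median 867) in group 3 against 1028 and 1291 CPM in group 1 for Fer1HCH (log2 fold changes -0.59 and -0.43). All 3 were lower in every mutant library. In the list of larval serum and storage genes as a whole, 1 of 19 was higher and 3 lower (5.26% and 15.8%, against 14.2% and 12.3% of all genes), and of fatty acid and wax genes, 1 of 20 was higher and 2 lower (5% and 10%). The fatty acyl reductase genes wat and FarO had log2 fold changes of -0.87 and 0.99, and SCAP, the escort of the lipid sensor SREBP, of -0.87. Storage counts were 0 higher and 3 lower without group 1 replicate 1, and 0 higher and 0 lower without group 1 replicate 2. Elsewhere they were 3 higher with only the 12 libraries fitted and 6 higher by DESeq2. Fatty acid counts were 0 higher and 1 lower without group 1 replicate 1, and 0 higher and 0 lower without group 1 replicate 2. Other settings gave 1 lower without the libraries labelled human skin. wat, FarO and Lsp2 no longer passed when either control was left out, and Lsd-1, Fer2LCH, Fer1HCH and SCAP without group 1 replicate 2.

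Of 16 sphingolipid genes, 2 rose and 4 fell (12.5% and 25%, against 14.2% and 12.3% of all genes). The glucocerebrosidase gene Gba1b had 33.6 to 48.8 CPM (median 40.4) in group 3, against 19.96 and 25.7 CPM in group 1 (log2 fold change 0.83 ± 0.19, adjusted p = 0.0022, edgeR), and the ceramidase gene CDase had 14.9 to 29.3 CPM (median 23.2) in group 3, against 34.3 and 56.6 CPM in group 1 (log2 fold change -1.02 ± 0.24, adjusted p = 0.0035). The ceramide carrier gene cert and the lyase gene Sply had log2 fold changes of -0.68 and -0.66. All 4 separated the groups. The counts were 0 higher and 2 lower without group 1 replicate 1, and 1 higher and 1 lower without group 1 replicate 2. Some other alternatives had 1 higher at a mean of at least 5 CPM, without group 3 replicates 2 and 5, without a filter on low counts, without ribosomal RNA pseudogenes, with upper-quartile scaling, without group 4 replicate 4, without the libraries labelled human skin or without group 3 replicate 1, 2, 3, 5, 6 or 8 and 7 lower without group 4 replicate 4. Gba1b and cert no longer passed without group 1 replicate 1, and CDase and Sply without group 1 replicate 2.

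Most signalling genes that passed were lower. Of 22 genes of insulin, TOR and FOXO, 1 was higher and 5 lower (4.55% and 22.7%, against 14.2% and 12.3% of all genes), in 12 of the 22 all mutant libraries lay below both controls (against 19.1% of all genes), and the gene that rose was Ldh. The insulin receptor substrate gene chico had 31.9 to 47.3 CPM (median 39.4) in group 3, against 52.0 and 65.7 CPM in group 1 (log2 fold change -0.57 ± 0.13, adjusted p = 0.0024, edgeR), and Lnk and Pdk1 had log2 fold changes of -0.56 and -0.36. Of 18 JNK and JAK-STAT genes, 1 was higher and 4 lower (5.56% and 22.2%). The Fos gene kay, the JNK phosphatase gene puc and the TNF receptor gene grnd had log2 fold changes of -0.54, -0.51 and -0.71, while the ligand gene upd1 had 11.4 to 17.4 CPM (median 13.5) in group 3, against 8.22 and 7.02 CPM in group 1 (log2 fold change 0.90 ± 0.27, adjusted p = 0.018). Insulin counts were 1 higher and 3 lower without group 1 replicate 1, and 1 higher and 0 lower without group 1 replicate 2. Among the other alternatives were 9 lower with only the 12 libraries fitted and 10 lower without group 4 replicate 4. JNK and JAK-STAT counts were 0 higher and 1 lower without group 1 replicate 1, and 0 higher and 1 lower without group 1 replicate 2. Further settings gave counts of 2 lower without the libraries labelled human skin and 8 lower without group 4 replicate 4. puc, grnd and upd1 no longer passed when either control was left out, and chico, Lnk, Pdk1 and kay without group 1 replicate 2.

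Jheh3, an epoxide hydrolase that inactivates juvenile hormone, had 14.47 to 35.5 CPM (median 25.3) in group 3, against 62.2 and 174 CPM in group 1 (log2 fold change -2.19 ± 0.27, adjusted p = 1.7e-06, edgeR). The ecdysone-induced gene Eip63F-1 had 27.5 to 51.8 CPM (median 45.8) in group 3, against 73.8 and 78.1 CPM in group 1 (log2 fold change -0.77 ± 0.18, adjusted p = 0.0032). Neither overlapped. In this list of 28 genes, which also holds MsrA and Ldh, 1 of 28 was higher and 6 lower (3.57% and 21.4%, against 14.2% and 12.3% of all genes), and the counts were 1 higher and 5 lower without group 1 replicate 1, and 1 higher and 2 lower without group 1 replicate 2. In other fits there were 10 lower without group 4 replicate 4 and 11 lower with only the 12 libraries fitted. Of 17 apoptosis genes, 0 were higher and 5 lower (0% and 29.4%). The caspase gene Damm had 3.11 to 8.91 CPM (median 5.36) in group 3, against 33.4 and 24.8 CPM in group 1 (log2 fold change -2.36 ± 0.29, adjusted p = 1.7e-06), and Diap1, which inhibits caspases, had 147 to 189 CPM (median 175) in group 3, against 211 and 233 CPM in group 1 (log2 fold change -0.36 ± 0.10, adjusted p = 0.011). The caspase gene Strica and the TNF receptor gene wgn had log2 fold changes of -1.04 and -0.66. Apoptosis counts were 0 higher and 3 lower without group 1 replicate 1, and 0 higher and 1 lower without group 1 replicate 2. Other choices left 2 lower without the libraries labelled human skin and 3 lower without group 3 replicate 8. Strica no longer passed when either control was left out, Eip63F-1, Diap1 and wgn without group 1 replicate 2, and Jheh3 and Damm passed with either control left out.

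Neuropeptide genes, which encode the peptide signals of brain and gut, rose in 2 of 41 and fell in 8 (4.88% and 19.5%, against 14.2% and 12.3% of all genes). AstCC, an allatostatin, had 0.381 to 4.57 CPM (median 2.27) in group 3, against 0.180 and 0.109 CPM in group 1 (log2 fold change 3.91 ± 0.81, adjusted p = 0.0011, edgeR). Tk, the tachykinin gene, had 5.51 to 12.5 CPM (median 9.42) in group 3, against 23.8 and 19.1 CPM in group 1 (log2 fold change -1.23 ± 0.28, adjusted p = 0.0027), and AstC had 8.78 to 20.1 CPM (median 13.3) in group 3, against 32.9 and 25.95 CPM in group 1 (log2 fold change -1.09 ± 0.24, adjusted p = 0.0016). AstCC was higher and the other genes lower in all mutant libraries. CCHa1 had a log2 fold change of -1.27. The counts were 1 higher and 0 lower without group 1 replicate 1, and 2 higher and 8 lower without group 1 replicate 2. Elsewhere they were 1 higher at a mean of at least 5 CPM. Tk, AstC and CCHa1 no longer passed without group 1 replicate 1, and AstCC passed with either control left out.

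Markers of neurons and glia were higher in 0 of 16 genes and lower in 4 (0% and 25%, against 14.2% and 12.3% of all genes), among them elav, which marks neurons, with 23.6 to 38.8 CPM (median 30.6) in group 3, against 50.4 and 50.9 CPM in group 1 (log2 fold change -0.74 ± 0.19, adjusted p = 0.0057, edgeR), and repo, which marks glia, with 5.96 to 11.7 CPM (median 9.63) in group 3, against 15.04 and 20.9 CPM in group 1 (log2 fold change -0.93 ± 0.25, adjusted p = 0.0079). Both separated the groups (they were chosen from the marker list after their values were seen). The sum of the 16 markers was 1219 to 2117 CPM (median 1794) in group 3, against 2143 and 2460.0 CPM in group 1. Marker counts were 0 higher and 2 lower without group 1 replicate 1, and 0 higher and 0 lower without group 1 replicate 2. Their part in the lower levels of neuropeptide and photoreceptor genes was not tested. Of 24 genes of dopamine and cuticle tanning, 0 were higher and 2 lower (0% and 8.33%). Catsup had 51.7 to 62.2 CPM (median 56.6) in group 3, against 76.0 and 78.1 CPM in group 1 (log2 fold change -0.44 ± 0.11, adjusted p = 0.0046), and b, the enzyme for beta-alanine, had a log2 fold change of -1.26. Of 15 clock genes, 0 were higher and 1 lower (0% and 6.67%), namely per with 23.4 to 53.7 CPM (median 34.5) in group 3, against 63.3 and 43.1 CPM in group 1 (log2 fold change -0.60 ± 0.21, adjusted p = 0.033). Tanning counts were 0 higher and 1 lower without group 1 replicate 1, and 0 higher and 0 lower without group 1 replicate 2. Other settings gave 4 lower with only the 12 libraries fitted. Clock counts were 0 higher and 0 lower without group 1 replicate 1, and 0 higher and 0 lower without group 1 replicate 2. Some other alternatives had 2 lower at a mean of at least 5 CPM or without group 4 replicate 4 and 3 lower with only the 12 libraries fitted. Catsup and per no longer passed when either control was left out, and b without group 1 replicate 2.

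Immune genes changed singly. Of 16 antimicrobial peptide genes, 1 was higher and 2 lower (6.25% and 12.5%, against 14.2% and 12.3% of all genes). Drsl4, a drosomycin-like gene, had 17.9 to 87.6 CPM (median 47.5) in group 3, against 4.70 and 3.80 CPM in group 1 (log2 fold change 3.51 ± 0.53, adjusted p = 3.2e-05, edgeR), while Def, which encodes defensin, had 0.275 to 9.86 CPM (median 1.81) in group 3, against 7.504 and 21.1 CPM in group 1 (log2 fold change -2.59 ± 0.69, adjusted p = 0.0074). Drsl4 separated the groups and Def did not. Of 17 bomanin and related genes, 2 were higher and 0 lower (11.8% and 0%). IBIN, which is induced by infection, had 1.06 to 5.84 CPM (median 2.73) in group 3, against 0.0359 and 0 CPM in group 1 (adjusted p = 0.0014), a ratio of 155 with a 95% counting interval of 27.6 to 6120.4 since the controls held 1 count in all, and BaraA1 had a log2 fold change of 1.499. Of 17 recognition genes, 1 was higher and 5 lower (5.88% and 29.4%), with GNBP2, GNBP1 and PGRP-SC1b at log2 fold changes of -0.89, -0.61 and -2.67 and PGRP-SB1 at 1.63. The log2 fold change of AttD was -2.39.

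In the same order, antimicrobial counts were 1 higher and 1 lower without group 1 replicate 1, and 1 higher and 0 lower without group 1 replicate 2. Among the other alternatives were 0 lower at a mean of at least 5 CPM and 1 lower by DESeq2, without group 3 replicates 2 and 5 or without the libraries labelled human skin. Bomanin counts were 1 higher and 0 lower without group 1 replicate 1, and 0 higher and 0 lower without group 1 replicate 2. Further settings gave counts of 1 higher at a mean of at least 5 CPM, without a filter on low counts, with upper-quartile scaling, without the libraries labelled human skin or without group 3 replicate 1, 4, 5, 6, 7, 8 or 10 and 2 lower without group 4 replicate 4. Recognition counts were 0 higher and 2 lower without group 1 replicate 1, and 0 higher and 0 lower without group 1 replicate 2. In other fits there were 3 lower without group 3 replicates 2 and 5 or without the libraries labelled human skin. BaraA1, GNBP1, PGRP-SB1 and AttD no longer passed when either control was left out, Def, IBIN, GNBP2 and PGRP-SC1b without group 1 replicate 2, and Drsl4 passed with either control left out.

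None of the 5 Turandot genes, which encode stress peptides of the blood, passed by edgeR, with 0 at an unadjusted p under 0.05 and 0 by DESeq2 or limma-voom, and 1 passed when only the 12 libraries were fitted. TotA had 45.4 to 431 CPM (median 113) in group 3, against 286 and 16.9 CPM in group 1, TotC had 6.28 to 318 CPM (median 47.6) in group 3, against 156 and 2.57 CPM in group 1 and TotM had 1.65 to 13.3 CPM (median 4.45) in group 3, against 16.0 and 3.40 CPM in group 1. Group 1 replicate 1 was above replicate 2 in these genes, and the mutants overlapped with them. The log2 fold changes of TotA, TotB, TotC, TotM and TotX were 0.29, 1.64, 0.30, -0.76 and -0.05, with adjusted p-values of 0.14 to 0.97.

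Odorant-binding protein genes, whose products carry odours and other small molecules, rose in 6 of 43 and fell in 1 (13.95% and 2.33%, against 14.2% and 12.3% of all genes). Obp51a, next to Obp58c and Obp99b among the rises, had 118 to 173 CPM (median 139) in group 3, against 17.5 and 28.8 CPM in group 1 (log2 fold change 2.63 ± 0.28, adjusted p = 1.8e-07, edgeR). Obp56a had 3.01 to 11.9 CPM (median 7.62) in group 3, against 77.6 and 26.2 CPM in group 1 (log2 fold change -2.79 ± 0.43, adjusted p = 5.3e-05). Obp51a lay above both controls and Obp56a below them. The scarce Obp58d had 87 counts in group 3, against 1 count in group 1 (adjusted p = 5.3e-04), a ratio of 24.7 with a 95% counting interval of 4.32 to 988. The counts were 3 higher and 1 lower without group 1 replicate 1, and 5 higher and 1 lower without group 1 replicate 2. Other choices left 2 lower by limma-voom, without a filter on low counts or without group 4 replicate 4 and 3 lower with only the 12 libraries fitted. Of cuticle protein genes, 1 of 45 was higher and 4 lower (2.22% and 8.89%), with Vajk4 at 7.05 to 13.96 CPM (median 10.04) in group 3, against 1.54 and 2.75 CPM in group 1 (log2 fold change 2.26 ± 0.33, adjusted p = 2.1e-05) and Cpr66Cb, TwdlE and Cpr62Ba at log2 fold changes of -3.06, -1.90 and -1.78. Their summed level was 1018 to 3659.9 CPM (median 1592) in group 3, against 245 and 2283 CPM in group 1, so that group 1 replicate 1 lay below all mutants and replicate 2 within their range. Cuticle counts were 1 higher and 2 lower without group 1 replicate 1, and 2 higher and 2 lower without group 1 replicate 2. Elsewhere they were 2 higher by DESeq2 and 0 lower at a mean of at least 5 CPM. TwdlE no longer passed when either control was left out, Cpr66Cb and Cpr62Ba without group 1 replicate 1, and Obp51a, Obp56a, Obp58d and Vajk4 passed with either control left out.

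Of 81 cytosolic ribosomal protein genes, 2 rose and 0 fell (2.47% and 0%, against 14.2% and 12.3% of all genes), with a median of 0.14. RpL28 had 473 to 952 CPM (median 511) in group 3, against 426 and 277 CPM in group 1 (log2 fold change 0.73 ± 0.26, adjusted p = 0.039, edgeR), and RpLP2 had a log2 fold change of 0.42. Both lay above the controls. Of 31 cell cycle genes, 2 rose and 0 fell (6.45% and 0%). The mitotic kinase genes aurB and aurA had 12.2 to 19.5 CPM (median 14.3) in group 3 against 5.71 and 3.40 CPM in group 1 for aurB, and 42.5 to 79.0 CPM (median 55.2) in group 3 against 30.3 and 23.9 CPM in group 1 for aurA (log2 fold changes 1.70 and 1.04, adjusted p = 0.0012 and 0.0034). Ribosomal counts were 3 higher and 0 lower without group 1 replicate 1, and 0 higher and 0 lower without group 1 replicate 2. Other settings gave 0 higher without group 3 replicates 2 and 5 or with upper-quartile scaling and 1 higher with only the 12 libraries fitted, without the libraries labelled human skin or without group 3 replicate 2 or 6. Cell cycle counts were 2 higher and 0 lower without group 1 replicate 1, and 0 higher and 0 lower without group 1 replicate 2. Some other alternatives had 6 higher by DESeq2, 9 higher without group 4 replicate 4, 11 higher with only the 12 libraries fitted, 3 lower by DESeq2, 5 lower with only the 12 libraries fitted and 6 lower without group 4 replicate 4. RpL28, RpLP2, aurB and aurA no longer passed without group 1 replicate 2.

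Markers of other tissues moved alongside. Of 33 testis genes, 16 rose and 0 fell (48.5% and 0%, against 14.2% and 12.3% of all genes), with a median of 0.70, and the sum was 7042 to 11907 CPM (median 8524) in group 3, against 5714 and 5179 CPM in group 1. Every mutant library exceeded both controls. Among them the meiotic regulator gene twe had 72.6 to 117 CPM (median 86.4) in group 3, against 55.9 and 48.5 CPM in group 1 (log2 fold change 0.77 ± 0.18, adjusted p = 0.0029, edgeR) and the sperm tail gene Mst87F had 612 to 1584 CPM (median 846) in group 3, against 516 and 415 CPM in group 1 (log2 fold change 1.10 ± 0.40, adjusted p = 0.041), both chosen after their values were seen. Testis counts were 3 higher and 0 lower without group 1 replicate 1, and 0 higher and 0 lower without group 1 replicate 2. Among the other alternatives were 7 higher without the libraries labelled human skin and 10 higher without group 3 replicates 2 and 5. The part of testis RNA in the rises of other genes was not tested.

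Of 26 accessory gland genes, 0 were higher and 5 lower (0% and 19.2%, against 14.2% and 12.3% of all genes), with sums of 7136 to 17089.9 CPM (median 14995) in group 3, against 17067 and 15718 CPM in group 1, so that the ranges overlapped. Of 13 blood cell genes, 0 were higher and 6 lower (0% and 46.2%), with Hml, a clotting protein of blood cells, at 11.9 to 33.4 CPM (median 21.6) in group 3, against 28.3 and 199.8 CPM in group 1 (log2 fold change -2.33 ± 0.42, adjusted p = 2.6e-04, edgeR). For Hml, group 1 replicate 2 was far above replicate 1 and the mutants lay on the side of replicate 1. The sum of the 13 genes was 356 to 684 CPM (median 503) in group 3, against 273 and 1629 CPM in group 1. All mutants thus lay between the controls. In 1 of the 13 genes all mutant libraries lay below both controls, against 19.1% of all genes. In 9 of the 13 the controls were over 2-fold apart. Of 12 genes of the Malpighian tubule, the fly's excretory organ, 1 was higher and 3 lower (8.33% and 25%). Of these genes, 9 had a negative log2 fold change, and the median was -0.46. Their sum was 452 to 955 CPM (median 749) in group 3, against 876 and 793 CPM in group 1, so that the ranges overlapped. The 1 higher gene, the urate oxidase gene Uro, had 43.2 to 123 CPM (median 86.5) in group 3, against 27.0 and 10.2 CPM in group 1 (log2 fold change 2.16 ± 0.51, adjusted p = 0.0032). Hml and Uro were chosen after their values were seen. Accessory gland counts were 0 higher and 0 lower without group 1 replicate 1, and 0 higher and 3 lower without group 1 replicate 2. Further settings gave counts of 9 lower without group 4 replicate 4. Blood cell counts were 0 higher and 7 lower without group 1 replicate 1, and 0 higher and 1 lower without group 1 replicate 2. In other fits there were 3 lower without the libraries labelled human skin. Tubule counts were 1 higher and 1 lower without group 1 replicate 1, and 0 higher and 1 lower without group 1 replicate 2.

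Of 11 fat body markers, 1 was higher and 0 lower (9.09% and 0%, against 14.2% and 12.3% of all genes), with sums of 5007 to 15214 CPM (median 9767) in group 3, against 6845 and 18494 CPM in group 1, so that the ranges overlapped. Fat body counts were 0 higher and 0 lower without group 1 replicate 1, and 0 higher and 0 lower without group 1 replicate 2. Other choices left 2 higher with only the 12 libraries fitted and 3 higher by DESeq2. Egg and ovary markers summed to 19.3 to 26.5 CPM (median 22.9) in group 3, against 36.9 and 34.0 CPM in group 1, and 0 of 16 passed by edgeR, with 1 at an unadjusted p under 0.05. By DESeq2 3 were lower, by limma-voom 1, without group 4 replicate 4 it was 4 and with only the 12 libraries 4. The chorion genes Cp36 and Cp38 and the yolk gene Yp1 stayed at or below 1.44 CPM in all 12 libraries.

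By position, the share of lower genes on the small chromosome 4 exceeded that on each other arm (the difference was not tested). Of 83 genes tested there, 30 were lower (36.1%, against 12.3% of all genes) and 1 higher, with a median log2 fold change of -0.41, and 71 of the 83 had a negative one. Negative values were found for 1119 of 2055 genes on X, 1193 of 2452 on 2L and 1356 of 2666 on 2R. They were found for 1220 of 2485 genes on 3L and 1576 of 3183 on 3R. On X, 2L, 2R, 3L and 3R, 11.4% to 13.3% of genes were lower and 9.68% to 15.6% higher. Of the 30 lower genes on chromosome 4, 27 did not overlap between the groups, against 1344 of the 1620 genes called lower in all. The genes named here were chosen after their values were seen. Gat, a transporter of the neurotransmitter GABA, had 9.18 to 20.6 CPM (median 15.1) in group 3, against 31.5 and 128 CPM in group 1 (log2 fold change -2.40 ± 0.49, adjusted p = 8.8e-04, edgeR), Ekar, a glutamate receptor subunit, had 3.58 to 10.1 CPM (median 7.45) in group 3, against 21.2 and 13.1 CPM in group 1 (log2 fold change -1.20 ± 0.27, adjusted p = 0.0025) and PMCA, a calcium pump of the cell membrane, had 145 to 431 CPM (median 293) in group 3, against 451 and 811 CPM in group 1 (log2 fold change -1.22 ± 0.37, adjusted p = 0.018). All were below both controls. Without group 1 replicate 1, 9 of 83 were lower and 1 higher, and without group 1 replicate 2, 2 were lower and 0 higher. Without group 3 replicates 2 and 5, 19 were lower.

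**Figure D5:**
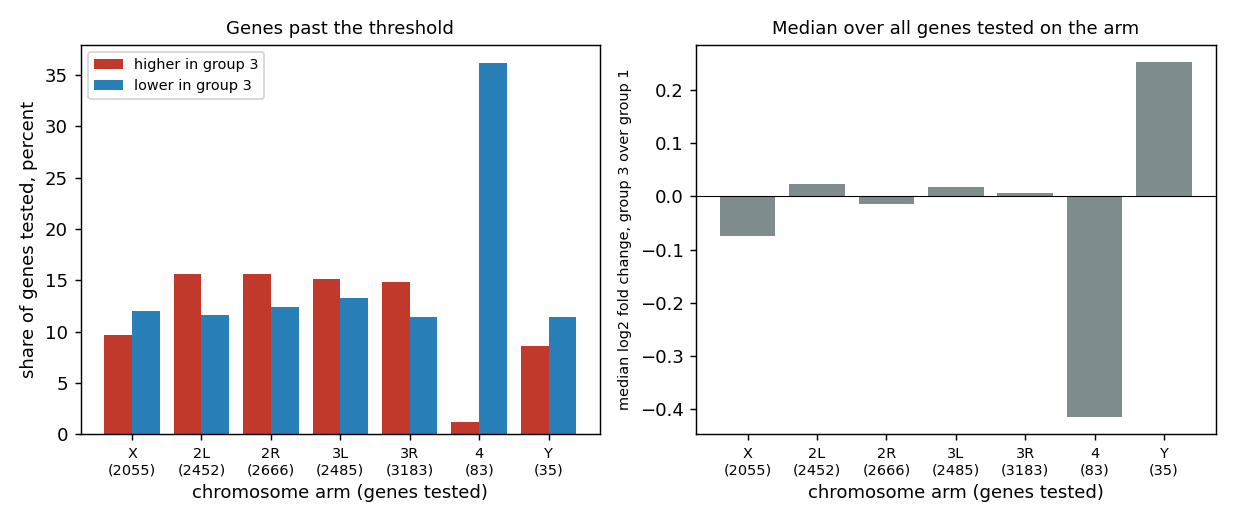
Left, share of genes tested on each chromosome arm that passed higher (red) or lower (blue) in group 3 against group 1, in percent. Right, median log2 fold change of group 3 over group 1 on each arm. The number of genes tested is given under each arm, and chromosome 4, with 36.1% lower and a median of -0.41, lies apart from the others.

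Within group 3, the called genes with the widest spread were 3 serine proteases, CG31343, CG12057 and Hsp70Aa. The protease gene Jon99Fi had 0.0918 to 75.9 CPM (median 17.7) in group 3, against 213 and 386 CPM in group 1 (log2 fold change -3.44 ± 1.05, adjusted p = 0.018, edgeR), Jon99Fii had 5.14 to 166 CPM (median 46.4) in group 3, against 414 and 597 CPM in group 1 (log2 fold change -2.79 ± 0.96, adjusted p = 0.034) and lambdaTry had 0.826 to 28.4 CPM (median 7.21) in group 3, against 54.8 and 74.8 CPM in group 1 (log2 fold change -2.69 ± 0.97, adjusted p = 0.040). Even the highest mutant library stayed below both controls for each of these genes. CG31343 and CG12057 had log2 fold changes of -2.97 and -2.996. Jon99Fi, Jon99Fii, lambdaTry, CG31343, CG12057 and Hsp70Aa no longer passed when either control was left out.

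Larval proteins varied in the same way at the other end. Fbp1, a fat body receptor for larval serum proteins, had 4.41 to 1160.3 CPM (median 119) in group 3, against 0.610 and 0.869 CPM in group 1, and Lsp1gamma, a larval serum protein, had 15.04 to 596 CPM (median 129) in group 3, against 1.44 and 16.5 CPM in group 1 (adjusted p = 0.063 and 0.15, edgeR; both chosen after their values were seen). Summed over 6 larval serum and fat body proteins, group 3 replicate 5 had 2777 CPM, replicate 3 had 1580 CPM, replicate 2 had 1433 CPM, replicate 6 had 1144 CPM and replicate 8 had 784 CPM. The other 5 libraries had 120 to 185 CPM, against 10.6 and 31.3 CPM in group 1. All 10 mutants were thus above both controls. The sum holds Lsp2, which was named by a rule that required no overlap, so that it is not separate from that rule. In replicate 10, Lsp2 had 138 CPM of the 185 CPM. The other members were chosen after their values were seen, and Lsp1gamma by itself overlapped with the controls. The same sum reached 29.9 to 2769 CPM in group 2 and 43.3 to 3444 CPM in group 4, and the lowest library of group 2 lay within the range of the controls.

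Set against the other mutants, group 3 had no gene past the threshold. Against group 2, 0 genes passed by edgeR, DESeq2 or limma-voom, with 243 at an unadjusted p under 0.05 by edgeR. For group 4 against group 3, 0 genes passed by any of these tools, with 1055 at an unadjusted p under 0.05 by edgeR and a smallest adjusted p of 0.115, which 6 egg and yolk genes had (Cp18, Cp19, Cp36, Cp38, osk and Yp1), all with far higher levels in group 4 replicate 4 than in the other libraries of both groups. Groups 3 and 4 came from the same parent pairs, and the fit did not pair them, since the labels do not say which libraries share a pair. Pink1 averaged 58.5 CPM in group 3, 54.1 CPM in group 2, 63.5 CPM in group 4 and 246 CPM in group 1. MsrA averaged 58.5 CPM in group 3, 53.8 CPM in group 2, 56.7 CPM in group 4 and 216 CPM in group 1. Jon66Ci averaged 0.0733 CPM in group 3, 0.113 CPM in group 2, 0.103 CPM in group 4 and 44.4 CPM in group 1. The comparisons of the mutant groups with group 1 share the same 2 controls.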

How the data were processed

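RNA of pooled whole flies, given as males, was sequenced as stranded total RNA. Egg and ovary markers summed to 6305 CPM in group 4 replicate 4, against 16.7 to 36.9 CPM in the other libraries. Whether that pool held males only was not tested. The deposited table holds expected counts per gene that the authors estimated with kallisto, for 14326 gene symbols in 30 libraries. The submitters' processing notes name kallisto 0.45.0 and the human build GRCh38, while the study's methods name the fly genome and another version of kallisto, and the table holds fly genes. Counts were rounded to whole numbers, genes were filtered with edgeR's filterByExpr (13190 kept), scaled by TMM and fitted over all 4 groups with edgeR's quasi-likelihood test (edgeR 4.0.16, R 4.3.3). P-values were adjusted by Benjamini-Hochberg over all genes kept, and a gene was called below 0.05. Standard errors were derived from the quasi-likelihood statistic.

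Groups came from the library titles. Total counts per library give the depth. The 14105 genes with a position were placed by the BDGP6.54 annotation, and list symbols were also matched by synonym. The intervals and floors cover counting error only. Named were Pink1, the 12 largest rises and falls among called genes without overlap and with at least 5 CPM on average in the higher group, the 6 smallest p-values, up to 4 called members with the smallest p in each of 40 lists (every member where a list had 8 or fewer), up to 6 genes with counts in one group only in each direction, the 6 called genes with the widest spread within group 3, and genes of the study's functional tests. Other genes were chosen after their values were seen. This holds also where it is not repeated beside them, as for eca and Cyp12d1-p. The members and lists were chosen with earlier results of these data known. Alternatives were other scalings and filters, DESeq2 1.42.0, limma-voom (limma 3.58.1), only the 12 libraries, and libraries left out. The fits without group 3 replicates 2 and 5, and those lacking the pseudogenes of ribosomal RNA, were chosen after seeing the data.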

Additional observations from a re-analysis of the deposited data

Results flagged for a closer look

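Of 88 values and sums checked in group 3, 11 had 1 library set apart from the other libraries of the group by more of the range than Dixon's 95% limit for 10 samples. For independent values with a normal spread, chance sets apart about 1 in 20. CPM values need not be normal and the items share libraries, so no excess can be read from the 11. Replicate 5 was the highest for Pink1 at 74.0 CPM (next 61.0 CPM), for Obp99b at 478 CPM (next 227 CPM) and for CG42500 at 0.642 CPM (next 0.317 CPM). Replicate 3 was the highest for CG14205 at 5.67 CPM (next 2.17 CPM), for the summed gut carbohydrases at 2429 CPM (next 1466 CPM) and for Cyp12d1-d at 0.473 CPM, the one library with a count of it.

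Replicate 2 was the lowest for KdelR at 87.3 CPM (next 104 CPM) and for the summed accessory gland genes at 7136 CPM (next 11974 CPM). Replicate 4 was the highest for the summed glycolytic genes at 22284 CPM (next 16758 CPM) and for the summed autophagy genes at 1845 CPM (next 1674 CPM). Replicate 6 was the highest for the summed proteasome genes at 5722 CPM (next 4573 CPM).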

How the results depend on the processing

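With 1 library left out in turn, 777 to 4773 genes were called against 3494 with all, and 339 to 661 with the effect size against 611. The lowest counts were those without group 1 replicate 2, and without group 1 replicate 1 the number called was 1522. Without group 4 replicate 4, which is in neither group, 4773 genes were called, and 661 with the effect size. With the effect size, 386 genes were called among genes of at least 5 CPM on average and 1250 with a limit of 1 on the log2 scale, which is by construction a wider limit. The direction of wbl turned without group 1 replicate 1 (log2 fold change 0.063, against -1.24 without group 1 replicate 2). Of 160 named genes called, 45 were called in every alternative that tested them (23 for 37 genes, 22 for 8). The others lost the call in at least 1, most of them where 1 of the controls was left out. A left-out library of group 3 lost the call of 11, all also lost without a control. The cause of these losses was not tested, beyond the 1 control that each such fit has left, which is assumed to vary like the other groups. No paired analysis was possible because nothing in the labels links a library of group 3 with a library of group 1. Against groups 2 and 4, 0 genes were called under each alternative that could be fitted. With 2 controls that differ from each other, small changes and genes of few counts are measured least surely.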

Other observations

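Some genes that vary widely within group 3 were not described above and did not pass the test. They were chosen after their values were seen. HSPBAP1 had 3.00 to 280 CPM (median 88.6) in group 3, against 91.6 and 36.0 CPM in group 1 (adjusted p = 0.85, edgeR). The lysosomal mannosidase genes LManV and LManVI had 0.458 to 97.6 CPM (median 11.7) and 4.44 to 166 CPM (median 20.1) in group 3, against 6.57 and 131 CPM for LManV and 11.8 and 237 CPM for LManVI in group 1. The controls thus spanned a range of the same order as the mutants. The maltase gene Mal-A7 had 1.261 to 157 CPM (median 21.4) in group 3, against 3.81 and 16.7 CPM in group 1 (adjusted p = 0.40).

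Among opsin genes not described above, which were lower in group 3, ninaE, the main rhodopsin of the outer photoreceptors, had 1258 to 2541 CPM (median 1727) in group 3, against 7296 and 2588 CPM in group 1 (log2 fold change -1.45, adjusted p = 0.0012, edgeR). Rh5 had 3.12 to 31.6 CPM (median 9.76) in group 3, against 69.7 and 41.7 CPM in group 1, and Rh6 had 18.8 to 47.4 CPM (median 38.4) in group 3, against 132 and 84.0 CPM in group 1 (log2 fold changes -2.32 and -1.57). The mutants stayed below both controls in ninaE, Rh5 and Rh6, in ninaE by little against group 1 replicate 2. In Rh3 they did not, with 41.8 to 91.8 CPM (median 58.4) in group 3, against 184 and 81.4 CPM in group 1. The testis-specific proteasome gene Prosalpha4T1 had 19.8 to 39.6 CPM (median 27.9) in group 3, against 15.9 and 11.51 CPM in group 1 (log2 fold change 1.09, adjusted p = 0.0053). Prosalpha4T1 and these opsin genes were chosen after their values were seen, and their calls with a control left out are not given.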
